A study of Mus musculus with 20 samples.

Results

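The 47 genes described here encode the glutamate receptors of mouse synapses and the proteins of the postsynaptic density, the protein mat under the receptors of an excitatory synapse. They are defined by gene symbol, with no threshold on a value, and all 47 were found among the 18054 gene symbols of the count table. They fall into 10 groups by role: AMPA, NMDA and kainate receptor subunits, metabotropic glutamate receptors, AMPA receptor auxiliary subunits, scaffolds of the membrane-associated guanylate kinase family, Dlgap linkers, Shank and Homer scaffolds, postsynaptic adhesion molecules and signalling proteins of the density. All 47 passed the filter on low counts in both kinds of library. The tissue was the hippocampus. Qtrt1-/- mice (KO) have no working Qtrt1, the active chain of the tRNA-guanine transglycosylase that builds queuosine into tRNA, and were set against wild-type mice (WT). Each of the 10 animals gave 1 library of ribosome footprints, the stretches of mRNA shielded from nuclease by ribosomes, and 1 library of input RNA from the same lysate. There were 3 KO females (6 months and 21 days old), 3 WT females (6 months and 21 or 22 days), 2 KO males and 2 WT males. Each male pair held 1 animal of 6 months and 18 days and 1 of 5 months and 16 days. The labels name no further allele, drug or training for any group, and they give the animals as separate individuals.

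At an excitatory synapse, glutamate opens AMPA and kainate receptors for fast transmission and NMDA receptors, which let calcium in when the membrane is already depolarised, while metabotropic receptors signal through G proteins. Membrane-associated guanylate kinase scaffolds such as PSD-95 hold receptors in place, and Dlgap proteins link them to Shank and Homer proteins, which connect the density to the actin cytoskeleton. In the hippocampus these proteins carry long-term potentiation and depression, the changes in synaptic strength tied to learning. Many of the mRNAs are also transported into dendrites and translated there. Queuosine sits at the wobble base of the tRNAs that bring tyrosine, histidine, aspartate and asparagine. The title of the series speaks of codon-biased elongation and of sex differences in learning. KO was therefore set against WT in females and in males, and the female and male differences were compared directly.

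The depth was 5357812 to 15517982 counts in a footprint library and 9000662 to 13637370 in an input library. The 47 genes took 0.897% to 1.16% of footprint counts and 1.21% to 1.53% of input counts. Levels are given as CPM, counts scaled to a common library total, after TMM scaling within each kind of library. Qtrt1 itself had 1 to 5 footprint counts in KO females, against 28 to 40 in WT females, and 3 and 10 in KO males, against 46 and 94 in WT males. The libraries carried the RNA of other brain regions to different degrees. Summed footprint levels of 23 choroid plexus markers ran from 3743 to 13876 CPM in KO females and from 845 to 8445 CPM in WT females, and stood at 12290 to 16929 CPM in males. The WT females 1 and 2 were lowest. Summed levels of 16 striatum markers ran from 395 to 937 CPM in KO females and from 754 to 1668 CPM in WT females, with 364 to 447 CPM in males. WT females 1 and 3 and KO female 2 were highest there. No choroid plexus marker was at 0 in any footprint library, and 1 striatum marker was at 0 in KO female 1 and in WT male 2. The 15 pan-neuronal markers summed to 14461 to 15655 CPM in KO females and 16135 to 18029 CPM in WT females. Markers of the hippocampal fields were present in every animal, at 1571 to 1667 CPM summed over the CA fields in KO females and 1051 to 1575 CPM in WT females. In female footprints 4 of 16 striatum markers fell, 2 of 23 choroid plexus and 5 of 12 meningeal fibroblast markers rose, and 6 of 19 cortex and subiculum markers fell while 3 rose (edgeR adjusted p under 0.05). Of 15 CA field markers 2 rose and 2 fell. The 10 dentate gyrus markers summed to 363 to 388 CPM in KO females and 253 to 355 CPM in WT females, without overlap. None was called by edgeR, with 5 at an unadjusted p under 0.05, 4 of them higher, and 2 called by DESeq2. The 10 interneuron markers summed to 1798 to 1941 CPM in KO females and 2108 to 2379 CPM in WT females, also without overlap, and 2 fell and 1 rose.

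A footprint density also carries the level of the mRNA. Per length of coding sequence, Nrgn had the highest footprint density of the 46 members with an annotated coding sequence. It encodes neurogranin, a short calmodulin-binding protein of dendritic spines, and its footprint density was 1577 ± 401 CPM per kb in KO and 1952 ± 162 CPM per kb in WT animals (SD, n = 5 each). Grin1, the subunit that every NMDA receptor contains, followed at 453 ± 14.0 CPM per kb in KO and 557 ± 72.9 CPM per kb in WT animals, and Gria1, the AMPA receptor subunit GluA1, at 364 ± 12.5 CPM per kb in KO and 278 ± 69.0 CPM per kb in WT animals. Gria2, the subunit that limits calcium entry through AMPA receptors, stood at 311 ± 44.4 CPM per kb in KO and 265 ± 36.8 CPM per kb in WT animals, and Dlg4, which encodes PSD-95, at 177 ± 9.77 CPM per kb in KO and 179 ± 21.4 CPM per kb in WT animals. Gria1 and Gria2 did not differ beyond their spread in WT animals. At the low end were Shank3, a scaffold deep in the density, with 3.80 ± 0.649 CPM per kb in KO and 4.78 ± 0.929 CPM per kb in WT animals, and Grin2d, an NMDA subunit of interneurons and the young brain, with 2.60 ± 0.601 CPM per kb in KO and 3.97 ± 1.30 CPM per kb in WT animals. The median over the 46 members in WT animals was 43.4 CPM per kb, against 15.2 CPM per kb over 12961 genes, and 14 of the 46 lay below the value for all genes.

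Within families the subunits kept a wide order of density. Among AMPA subunits Gria3 stood at 143 ± 31.4 CPM per kb in KO and 145 ± 39.6 CPM per kb in WT animals, and Gria4, typical of interneurons, at 50.5 ± 9.51 CPM per kb in KO and 48.5 ± 9.91 CPM per kb in WT animals. Among NMDA subunits the forebrain partner Grin2b had 145 ± 16.8 CPM per kb in KO and 139 ± 24.4 CPM per kb in WT animals, and Grin2a, which replaces it as synapses mature, had 48.8 ± 4.10 CPM per kb in KO and 44.2 ± 6.83 CPM per kb in WT animals. The difference between those 2 is wider than their spread, though a footprint density also carries the length of coding sequence chosen for each gene. Kainate subunits were lower, led by Grik3 at 31.1 ± 0.812 CPM per kb in KO and 39.5 ± 6.39 CPM per kb in WT animals and Grik2 at 41.4 ± 6.13 CPM per kb in KO and 33.0 ± 2.89 CPM per kb in WT animals, with Grik1 lowest at 5.32 ± 1.29 CPM per kb in KO and 5.07 ± 0.585 CPM per kb in WT animals. Among metabotropic receptors Grm3 had 78.6 ± 9.97 CPM per kb in KO and 100.3 ± 25.6 CPM per kb in WT animals and Grm5 89.4 ± 9.59 CPM per kb in KO and 81.0 ± 12.8 CPM per kb in WT animals, which overlap within their spread, and Grm4 was lowest at 7.79 ± 0.785 CPM per kb in KO and 10.5 ± 2.18 CPM per kb in WT animals. The linker Dlgap1 had 145 ± 8.18 CPM per kb in KO and 153 ± 25.9 CPM per kb in WT animals, against 10.8 ± 2.64 CPM per kb in KO and 13.1 ± 2.40 CPM per kb in WT animals for Dlgap3. Shank2, Shank1 and Shank3 ranked 40, 42 and 45 of the 46.

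The ratio of footprint to input CPM, a relative measure of ribosome footprints per mRNA, spread over more than an order of magnitude among the members. Grin1 had the highest ratio, 3.17 ± 0.349 in KO and 3.32 ± 0.128 in WT animals (SD, n = 5 each). Cacng8, an auxiliary subunit that holds AMPA receptors at hippocampal synapses, had 1.60 ± 0.271 in KO and 1.77 ± 0.252 in WT animals, and Grm2, a presynaptic metabotropic receptor that lowers glutamate release, had 1.33 ± 0.188 in KO and 1.66 ± 0.284 in WT animals. The lowest were the linker Dlgap3 at 0.105 ± 0.0246 in KO and 0.131 ± 0.0251 in WT animals, the scaffold Shank1 at 0.172 ± 0.0457 in KO and 0.196 ± 0.0459 in WT animals and Agap2, a GTPase-activating protein that also binds Homer, at 0.214 ± 0.0449 in KO and 0.258 ± 0.0442 in WT animals. In WT animals the median ratio was 0.689 over the 47 members and 0.904 over 13012 genes, and 31 of the 47 lay below the value for all genes. In each of the 10 animals Grin1 had the highest and Dlgap3 the lowest ratio, as the plot of ratios shows.

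**Figure D1:**
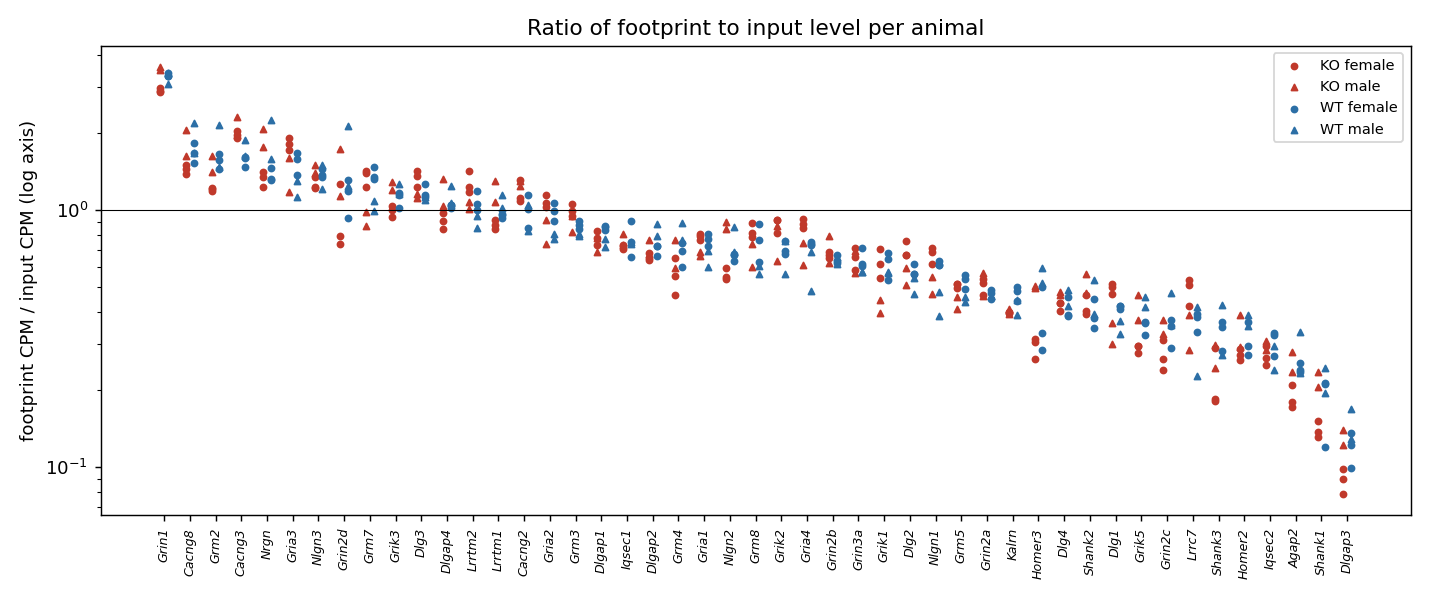
Ratio of footprint CPM to input CPM (vertical, log axis) for each of the 47 genes (horizontal, ordered by the WT mean), with 1 point per animal, KO in red left of WT in blue, circles for females and triangles for males. The genes span from a WT mean of 3.32 for Grin1 to 0.131 for Dlgap3, and the spread between genes is much wider than the gap between genotypes.

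In females, footprints of 11 of the 47 members fell in KO hippocampus and none rose (edgeR adjusted p under 0.05). Over all 13143 genes tested the same call was made for 7.06% in either direction, 4.25% lower and 2.81% higher. The 11 were the NMDA subunit Grin1, the kainate subunit Grik3, the metabotropic receptor Grm3, the linkers Dlgap2, Dlgap3 and Dlgap4, the scaffold Shank3, the signalling genes Iqsec1, Kalrn and Agap2, and Nrgn. The median log2 difference of the 47 was −0.20, against 0.003 over all genes, with 27 members below 0 and 20 above. Of the members, 22 had an unadjusted p under 0.05 (25.6% of all genes), 20 of them lower, and DESeq2 called 12 (8.73% of all genes). In the same females summed pan-neuronal, interneuron and dentate gyrus markers also separated by genotype, at the levels given above. So did cortex and subiculum markers, with 909 to 987 CPM in KO females and 1032 to 1128 CPM in WT females. Meningeal fibroblast markers had 553 to 657 CPM in KO females and 353 to 531 CPM in WT females. Thalamus markers had 404 to 464 CPM in KO females and 372 to 394 CPM in WT females. The part of these tissues and cells in the calls was not tested. In bulk tissue, fewer cells of a type and less RNA per cell cannot be told apart.

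The 4 AMPA receptor subunits, which carry fast excitatory current, were not called in female footprints. Gria1 had 1013, 1019 and 946 CPM in KO females, against 679.7, 995 and 584 CPM in WT females. Every KO female lay above WT females 1 and 3, and WT female 2 lay within the KO range. The log2 difference was 0.40 ± 0.18 (edgeR adjusted p = 0.172), the highest of the 47. Gria2 stood at 0.24 ± 0.12 (edgeR adjusted p = 0.212), Gria3 at −0.08 ± 0.12 and Gria4 at 0.05 ± 0.11. Of the 3 auxiliary subunits, which traffic AMPA receptors and slow their closing, none was called in female footprints. Cacng2, or stargazin, was at −0.31 ± 0.13 (edgeR adjusted p = 0.141), Cacng3 at −0.21 ± 0.10 and Cacng8 at 0.03 ± 0.16.

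Among the 6 NMDA receptor subunits 1 was called. Grin1 had 1248, 1289 and 1335 CPM in KO females, against 1724, 1748 and 1741 CPM in WT females. The groups did not overlap, and both genotypes were narrow. Grin1 footprints fell by 0.43 ± 0.10 on the log2 scale (edgeR adjusted p = 0.0213). Its partner subunits, which set how fast the channel closes, were not called: Grin2a was at 0.05 ± 0.13 and Grin2b at 0.02 ± 0.12, while the cerebellar-type subunit Grin2c was at −0.48 ± 0.17 (edgeR adjusted p = 0.0995) and Grin2d at −0.61 ± 0.29 (edgeR adjusted p = 0.203). Grin3a, which lowers calcium entry, was at 0.16 ± 0.20.

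Of the 4 kainate receptor subunits Grik3 was called. Its footprints stood at 84.8, 84.2 and 83.4 CPM in KO females, against 123, 113 and 121 CPM in WT females, without overlap and with the 3 KO females close to each other. Grik3 fell by 0.50 ± 0.11 on the log2 scale (edgeR adjusted p = 0.0233). Grik2, a main kainate subunit of mossy fibre synapses, was the one member whose KO females all lay above the WT females in footprints, with 129, 122 and 107 CPM in KO females, against 87.3, 102 and 88.5 CPM in WT females, and its difference of 0.37 ± 0.13 (edgeR adjusted p = 0.0955) did not pass. Grik1 was at 0.27 ± 0.17 and Grik5 at −0.27 ± 0.12.

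Among the 6 metabotropic receptors Grm3, which lowers cyclic AMP and is made by neurons and astrocytes, was called. It had 225, 227 and 215 CPM in KO females, against 328, 257 and 335 CPM in WT females, and WT female 2 was nearest the KO range. Grm3 footprints fell by 0.47 ± 0.13 on the log2 scale (edgeR adjusted p = 0.0476). Grm2, a close relative coupled to the same G protein, was at −0.34 ± 0.14 (edgeR adjusted p = 0.142) and Grm4 at −0.41 ± 0.19. Grm5, the receptor that couples to phospholipase C and binds Homer, stood at 0.16 ± 0.12, Grm7 at 0.03 ± 0.10 and Grm8 at −0.24 ± 0.15.

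The Dlgap linkers, which join PSD-95 to Shank, were the group with the highest share of calls, 3 of 4. Dlgap2 had 52.9, 59.1 and 66.9 CPM in KO females, against 85.3, 91.5 and 80.4 CPM in WT females and fell by 0.52 ± 0.12 on the log2 scale (edgeR adjusted p = 0.0214). Dlgap3 had 33.7, 23.3 and 23.4 CPM in KO females, against 48.3, 42.7 and 34.2 CPM in WT females, with KO female 1 close to WT female 3. It fell by 0.64 ± 0.17 on the log2 scale (edgeR adjusted p = 0.0391). Dlgap4 had 137, 127 and 159 CPM in KO females, against 200.3, 215 and 190.3 CPM in WT females and fell by 0.52 ± 0.12 on the log2 scale (edgeR adjusted p = 0.0225). In all 3 genes every KO female lay below every WT female. Dlgap1, which had the highest footprint density of the 4, was at −0.22 ± 0.10 (edgeR adjusted p = 0.166) with groups that did not overlap either.

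None of the 4 membrane-associated guanylate kinase scaffolds was called in female footprints. Dlg4, with the highest footprint density of them, had 384, 411 and 386 CPM in KO females, against 403, 492 and 407 CPM in WT females, and the groups overlapped. Its difference was −0.14 ± 0.10 (edgeR adjusted p = 0.404). Dlg1, or SAP97, was at −0.06 ± 0.11, Dlg2, or PSD-93, at 0.04 ± 0.11 and Dlg3 at 0.09 ± 0.09. Of the 5 Shank and Homer scaffolds, Shank3, whose loss causes autism-like behaviour in mice, was called. Shank3 had 18.9, 17.0 and 18.8 CPM in KO females, against 28.9, 33.0 and 24.5 CPM in WT females without overlap, and footprints fell by 0.66 ± 0.14 on the log2 scale (edgeR adjusted p = 0.0191), the lowest value of the 47. Shank1 was at −0.41 ± 0.15 (edgeR adjusted p = 0.0973), Shank2 at 0.08 ± 0.23, Homer2 at 0.10 ± 0.20 and Homer3 at 0.40 ± 0.30. Homer3 had 2.93 to 8.79 CPM in WT females, and it is also in the list of CA field markers.

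Of the 5 adhesion molecules, which bind presynaptic neurexins, none was called. The neuroligin of inhibitory synapses, Nlgn2, came nearest at −0.41 ± 0.12 (edgeR adjusted p = 0.0512), Nlgn3 was at −0.20 ± 0.11 and Nlgn1 at 0.00 ± 0.13. Lrrtm1 stood at 0.27 ± 0.13 and Lrrtm2 at 0.03 ± 0.10. Among the 6 signalling proteins 4 were called. Nrgn had 277, 291 and 343 CPM in KO females, against 484, 421 and 459 CPM in WT females, a gap wider than the range of either group, and fell by 0.58 ± 0.11 on the log2 scale (edgeR adjusted p = 0.012), the lowest p of the 47. Kalrn, which encodes the exchange factor kalirin that enlarges spines through Rac, had 444, 433 and 468 CPM in KO females, against 624, 617 and 552 CPM in WT females and fell by 0.41 ± 0.10 on the log2 scale (edgeR adjusted p = 0.0298). Agap2 had 231, 247 and 275 CPM in KO females, against 342, 377 and 300.4 CPM in WT females and fell by 0.44 ± 0.11 on the log2 scale (edgeR adjusted p = 0.0353). Iqsec1, an exchange factor for Arf6, had 215, 226 and 233 CPM in KO females, against 288, 321 and 272 CPM in WT females and fell by 0.39 ± 0.10 on the log2 scale (edgeR adjusted p = 0.037). Its relative Iqsec2 was at −0.40 ± 0.13 (edgeR adjusted p = 0.0731), and Lrrc7, or densin, at 0.31 ± 0.25. The plot of footprints per animal shows these levels with those of the males.

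**Figure D2:**
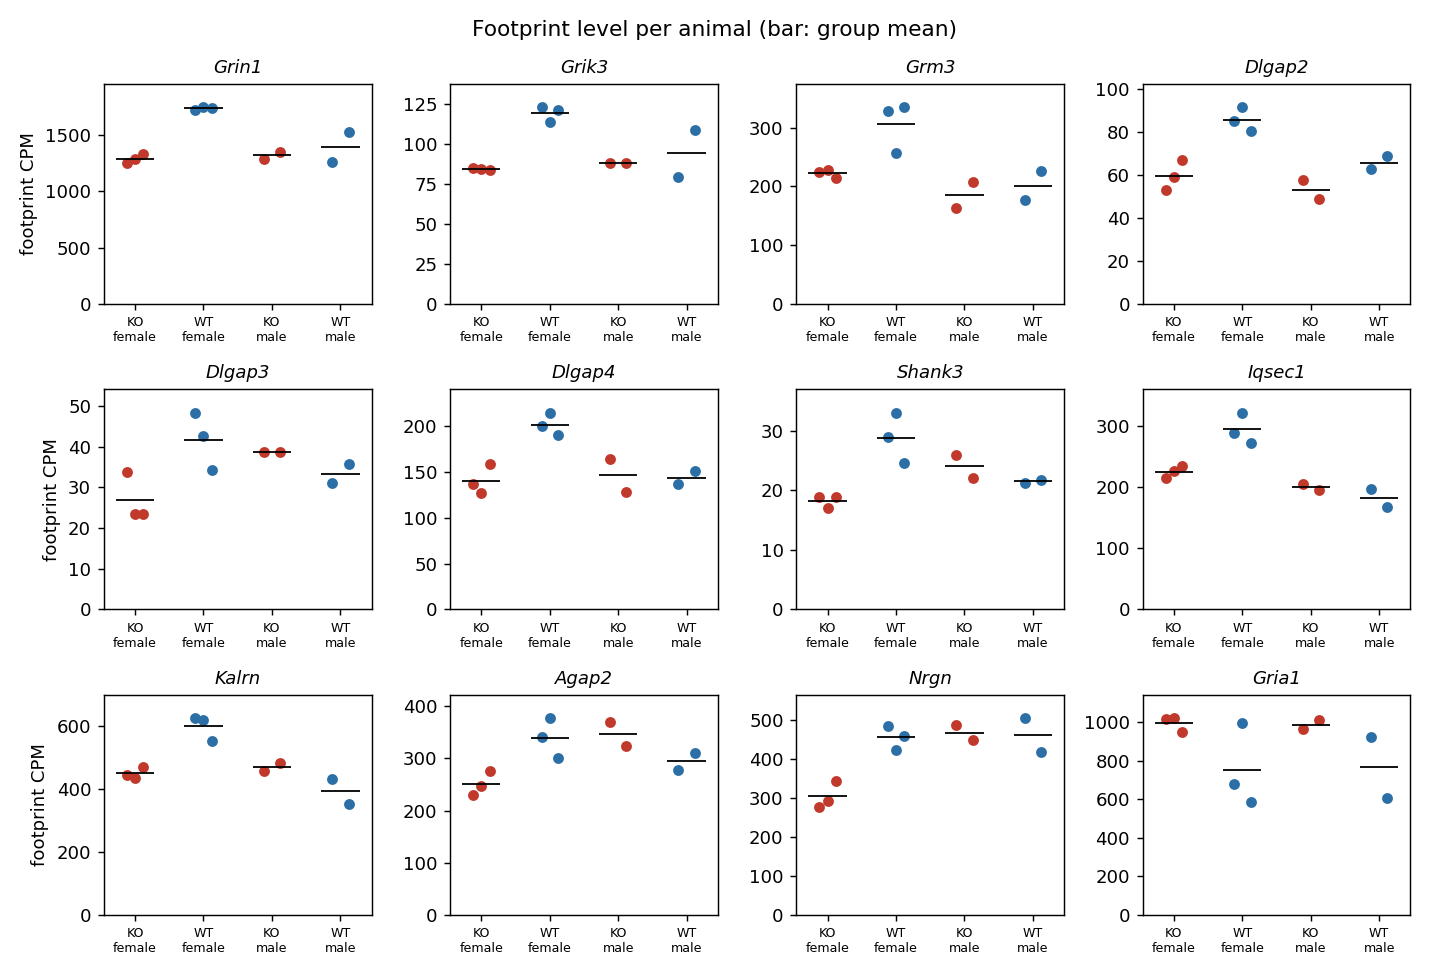
Footprint level in CPM (vertical, from 0) of the 11 genes called in females and of Gria1, which had the highest female difference, with 1 point per animal and a bar at each group mean, KO in red left of WT in blue. In the 11 called genes the 3 KO females lie below the 3 WT females, and the males show no common direction.

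Over single animals, 18 of the 47 members (38.3%) had footprints in all KO females below all WT females, against 17.8% of all genes tested, and 1 member (2.13%) had all KO females above, against 17.1%. The 18 were the 11 called genes and Cacng2, Dlgap1, Grik5, Grm2, Iqsec2, Nlgn2 and Nlgn3.

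In males no member was called in footprints, as was no gene of the whole table (0 of 13143, 0%). Of the 47 members 3 had an unadjusted p under 0.05 (4.28% of all genes), all higher, and DESeq2 called 0 (0.00761% of all genes). Of the 47, 33 lay above 0, with a median of 0.11, against −0.002 over all genes. Without KO male 2 the median was 0.034. The KO males lay above both WT males in 16 members (34%, against 13.2% of all genes) and below them in 5 (10.6%, against 13.7%). Shank1 had 57.2 and 52.0 CPM in KO males, against 38.7 and 37.0 CPM in WT males and the highest male difference, 0.53 ± 0.18 (edgeR adjusted p = 0.963). Kalrn had 458 and 479.9 CPM in KO males, against 432 and 351 CPM in WT males, a difference of 0.26 ± 0.12, and Agap2 had 371 and 325 CPM in KO males, against 278 and 311 CPM in WT males, a difference of 0.24 ± 0.14. In Nrgn the male groups overlapped, with 487 and 447 CPM in KO males, against 504 and 417 CPM in WT males and a difference of 0.02 ± 0.13. Grin1 stood at −0.08 ± 0.12, Shank3 at 0.17 ± 0.17, Dlgap3 at 0.22 ± 0.20 and Dlgap4 at 0.03 ± 0.14 in males. Dlgap2 was the called gene of females with the lowest male value, −0.30 ± 0.14, from 57.6 and 48.7 CPM in KO males, against 62.7 and 68.7 CPM in WT males.

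The difference between the sexes was tested directly as the female minus the male difference. No member passed in footprints, nor did any gene of the table (0%, lowest adjusted p of a member 0.306), while 14 members had an unadjusted p under 0.05 (29.8%, against 8.44% of all genes), all more negative in females, and DESeq2 called 1 (0.205% of all genes). Kalrn had the lowest p, with −0.67 ± 0.16 (edgeR adjusted p = 0.306), followed by Shank1 with −0.94 ± 0.23 and Agap2 with −0.68 ± 0.18. The median over the 47 was −0.17, against 0.005 over all genes. With both sexes averaged, no member was called in footprints (1 gene of the table, 0.00761%), 15 members had an unadjusted p under 0.05 (31.9%, against 19.6% of all genes) and DESeq2 called 2 (4.26%, against 4.02% of all genes). Dlgap2 came nearest at −0.41 ± 0.09 (edgeR adjusted p = 0.0626).

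**Figure D3:**
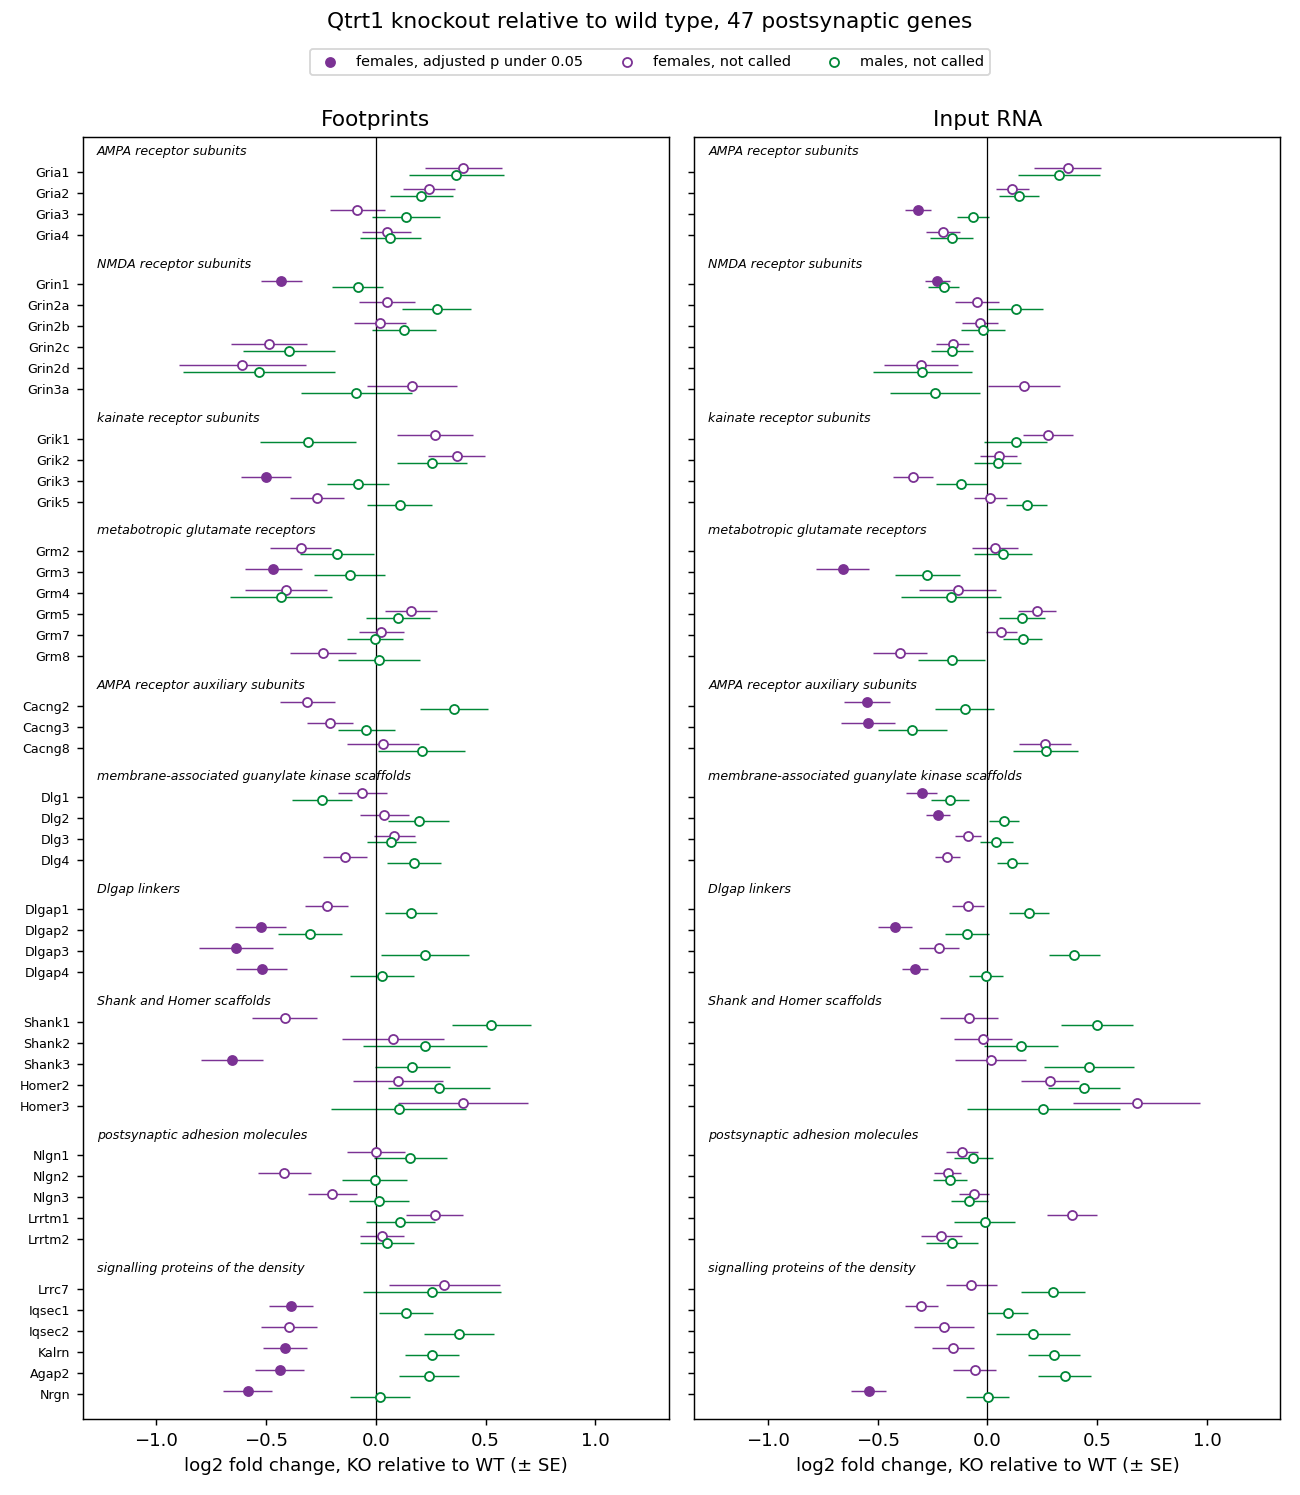
Log2 fold change of KO relative to WT (horizontal) with its standard error for each of the 47 genes, grouped by role, in footprints (left) and input RNA (right), females in purple and males in green, filled where the adjusted p is under 0.05. Filled points occur only in females and only to the left of 0, 11 in footprints and 10 in input RNA.

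Input RNA of the same females gave 10 members lower and 0 higher, in a table where 3.48% of 14164 genes were called, 2.73% lower and 0.748% higher. Footprints and input RNA shared 5 called members, Dlgap2, Dlgap4, Grin1, Grm3 and Nrgn, which are 5 of 11 footprint calls and 5 of 10 input calls from the same lysates. Grm3 had 213, 239 and 217 CPM in KO females, against 389, 285 and 382 CPM in WT females and fell by 0.66 ± 0.12 on the log2 scale (edgeR adjusted p = 0.0166). Nrgn had 206, 238 and 244 CPM in KO females, against 331, 321 and 348 CPM in WT females and fell by 0.54 ± 0.08 on the log2 scale (edgeR adjusted p = 0.0102). For both, no KO female reached the WT females. Dlgap2 RNA fell by 0.42 ± 0.08 on the log2 scale (edgeR adjusted p = 0.0178), Dlgap4 RNA fell by 0.33 ± 0.06 on the log2 scale (edgeR adjusted p = 0.0169) and Grin1 RNA fell by 0.23 ± 0.06 on the log2 scale (edgeR adjusted p = 0.048).

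By role, 2 of 3 auxiliary subunits, 2 of 4 guanylate kinase scaffolds, 2 of 4 Dlgap linkers and 1 each of the AMPA, NMDA, metabotropic and signalling groups fell in female input RNA. Of the 10, 5 were called in input RNA and not in footprints. Cacng2 had 31.0, 27.2 and 30.9 CPM in KO females, against 41.5, 38.7 and 50.0 CPM in WT females and fell by 0.55 ± 0.11 on the log2 scale (edgeR adjusted p = 0.0203). Cacng3, its close relative, had 69.5, 67.9 and 78.0 CPM in KO females, against 104, 90.8 and 119.5 CPM in WT females and fell by 0.54 ± 0.12 on the log2 scale (edgeR adjusted p = 0.0351). Both are auxiliary subunits of AMPA receptors, and neither had overlapping groups. The AMPA subunit Gria3 had 248, 227 and 246 CPM in KO females, against 292, 301 and 305 CPM in WT females and fell by 0.32 ± 0.06 on the log2 scale (edgeR adjusted p = 0.0199). Dlg1 fell by 0.30 ± 0.07 on the log2 scale (edgeR adjusted p = 0.0398), and Dlg2 fell by 0.23 ± 0.05 on the log2 scale (edgeR adjusted p = 0.0454). Shank3 and Agap2, called in footprints, were at 0.01 ± 0.16 and −0.06 ± 0.10 in input RNA, and Dlgap3 was at −0.22 ± 0.09. The median of the 47 was −0.11, against 0.009 over all genes, with 33 below 0. All 3 KO females lay below all WT females in 18 members (38.3%, against 13.4% of all genes) and above them in 2, Homer2 and Lrrtm1 (4.26%, against 11.8%).

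In male input RNA no member and no gene was called (0%), 9 members had an unadjusted p under 0.05 (19.1%, against 8.8% of all genes), 3 of them lower, and DESeq2 called 0 (0.0212% of all genes). The median of the 47 was 0.05, against 0.002 over all genes, and it was −0.014 without WT male 2 and 0.104 without WT male 1. KO males lay above both WT males in 18 members (38.3%, against 19.3% of all genes) and below in 10 (21.3%, against 18.5%). Dlgap3 had 279 and 316 CPM in KO males, against 241 and 212 CPM in WT males and a difference of 0.39 ± 0.11 (edgeR adjusted p = 0.475). WT male 2 was the lowest animal there, as it was in Kalrn, with 1161 and 1170.3 CPM in KO males, against 1104 and 788 CPM in WT males. With both sexes averaged, Grm3 was the 1 member called. Of all genes 0.734% were called, 0.642% lower and 0.0918% higher. Its male input levels were 198 and 218 CPM in KO males, against 219 and 284 CPM in WT males, and over both sexes it fell by 0.47 ± 0.10 on the log2 scale (edgeR adjusted p = 0.0489). No member passed in the sex difference in input RNA (0% of all genes, lowest adjusted p of a member 0.26), where 14 had an unadjusted p under 0.05 (29.8%, against 9.45% of all genes), 13 of them more negative in females, and DESeq2 called 2 (0.445% of all genes).

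Footprints relative to input RNA, fitted as an assay-by-genotype term, gave no called member in females, males, both sexes or the sex difference. The rest of the table gave 6 genes in females (0.0424%) and none in males, both sexes or the sex difference (0% each). DESeq2 called no member in any of the 4 comparisons (0.933% of all genes in females, 0% in males, 0.375% in both sexes and 0% in the sex difference). At an unadjusted p under 0.05 there were 4 members in females (12.6% of all genes), 1 in males (2.59%), 6 in both sexes (10.3%) and 0 in the sex difference (2.89%). The medians over the 47 were −0.05 in females and 0.05 in males, against 0.02 over all genes in each. Shank3 had ratios of 0.181, 0.184 and 0.291 in KO females, against 0.351, 0.368 and 0.282 in WT females, and a difference of −0.65 ± 0.23 (edgeR adjusted p = 0.249). KO female 3 alone lay within the WT range. Agap2 ratios were 0.17, 0.179 and 0.208 in KO females, against 0.253, 0.238 and 0.233 in WT females, without overlap, at −0.36 ± 0.15 (edgeR adjusted p = 0.326). Dlg2 had higher ratios in every KO female, with 0.667, 0.76 and 0.669 in KO females, against 0.563, 0.617 and 0.563 in WT females, at 0.28 ± 0.13 (edgeR adjusted p = 0.367), and the groups did not overlap either.

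Grin1 ratios were 2.88, 2.97 and 2.90 in KO females, against 3.41, 3.32 and 3.32 in WT females, without overlap, and the difference was −0.18 ± 0.10 (edgeR adjusted p = 0.469). In males they were 3.50 and 3.60 in KO males, against 3.10 and 3.43 in WT males, with KO above WT, at 0.14 ± 0.12. Cacng3 had higher ratios in KO females, with 2.03, 1.97 and 1.90 in KO females, against 1.59, 1.61 and 1.48 in WT females, a difference of 0.35 ± 0.16 (edgeR adjusted p = 0.375), and had 1.96 and 2.31 in KO males, against 1.87 and 1.63 in WT males. In Nrgn, whose footprints and input RNA both fell, the ratios overlapped, with 1.34, 1.23 and 1.40 in KO females, against 1.46, 1.31 and 1.32 in WT females and a difference of −0.03 ± 0.14. Ratios of all KO females lay below all WT females in 11 members (23.4%, against 15.2% of all genes) and above in 8 (17%, against 14.9%). In males the counts were 4 below (8.51%, against 12.9%) and 5 above (10.6%, against 13.9%).

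Of the 11 members that fell in female footprints, 9 had a coding sequence above the members' median in G and C. The share of G and C was 68.4% in Nrgn, 64.8% in Dlgap3, 64.6% in Shank3 and 63.0% in Agap2, against a median of 55.4% over the 46 members and 51.9% over 21562 genes. Among the 23 members above their median, 9 were called lower and 20 were below 0, with a median of −0.41, and among the 23 below it 2 were called, Grm3 at 48.4% and Kalrn at 54.5%, with a median of 0.04. Over all genes the medians on the same 2 sides were −0.18 and 0.09. Across the 46 members the female footprint difference and the G and C share had a Pearson r of −0.65 and a Spearman rho of −0.64, and over 12961 genes −0.38 and −0.45. These are correlations across genes, which share libraries and are not independent, so no p is given. In males the members gave −0.08 and −0.03, and in female input RNA −0.04 and −0.06. With a trend on G and C content removed from each library, a setting chosen after the data were seen, 5 of the 11 footprint calls passed, in Dlgap2, Grik3, Grin1, Grm3 and Kalrn, and the median of the 47 was −0.14. Under it Nrgn footprints stood at −0.15 ± 0.16, adjusted p = 0.64, Shank3 at −0.32 ± 0.13, adjusted p = 0.16, Dlgap3 at −0.29 ± 0.16, adjusted p = 0.303 and Agap2 at −0.15 ± 0.09, adjusted p = 0.352 by edgeR. All 10 input RNA calls passed under the same setting, Nrgn included. What lies behind the relation to G and C content was not tested.

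The 8 codons read by queuosine tRNAs, those of tyrosine, histidine, aspartate and asparagine, made up a median of 14.5% of the members' coding sequences, against 13.6% over all genes. Homer3 had the lowest share at 7.80%, then Agap2 at 8.35%, Shank3 at 10.4% and Shank1 at 10.6%. Nlgn1 had the highest share at 19.7%, then Grin2a at 18.4% and Nlgn3 at 18.1%. Members with a larger share had the higher difference in footprints relative to input RNA, with a Pearson r of 0.59 and a Spearman rho of 0.59 in females and 0.49 and 0.50 in males across 46 members. Over 13930 genes the same values were 0.19 and 0.24 in females and 0.05 and 0.09 in males. The share of these codons is tied to base composition, with r = −0.57 and rho = −0.56 against the G and C share among the members. The G and C share itself had r = −0.79 and rho = −0.82 with the female and −0.37 and −0.47 with the male difference in footprints relative to input RNA. The parts of codons and base composition in this relation were not told apart.

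**Figure D4:**
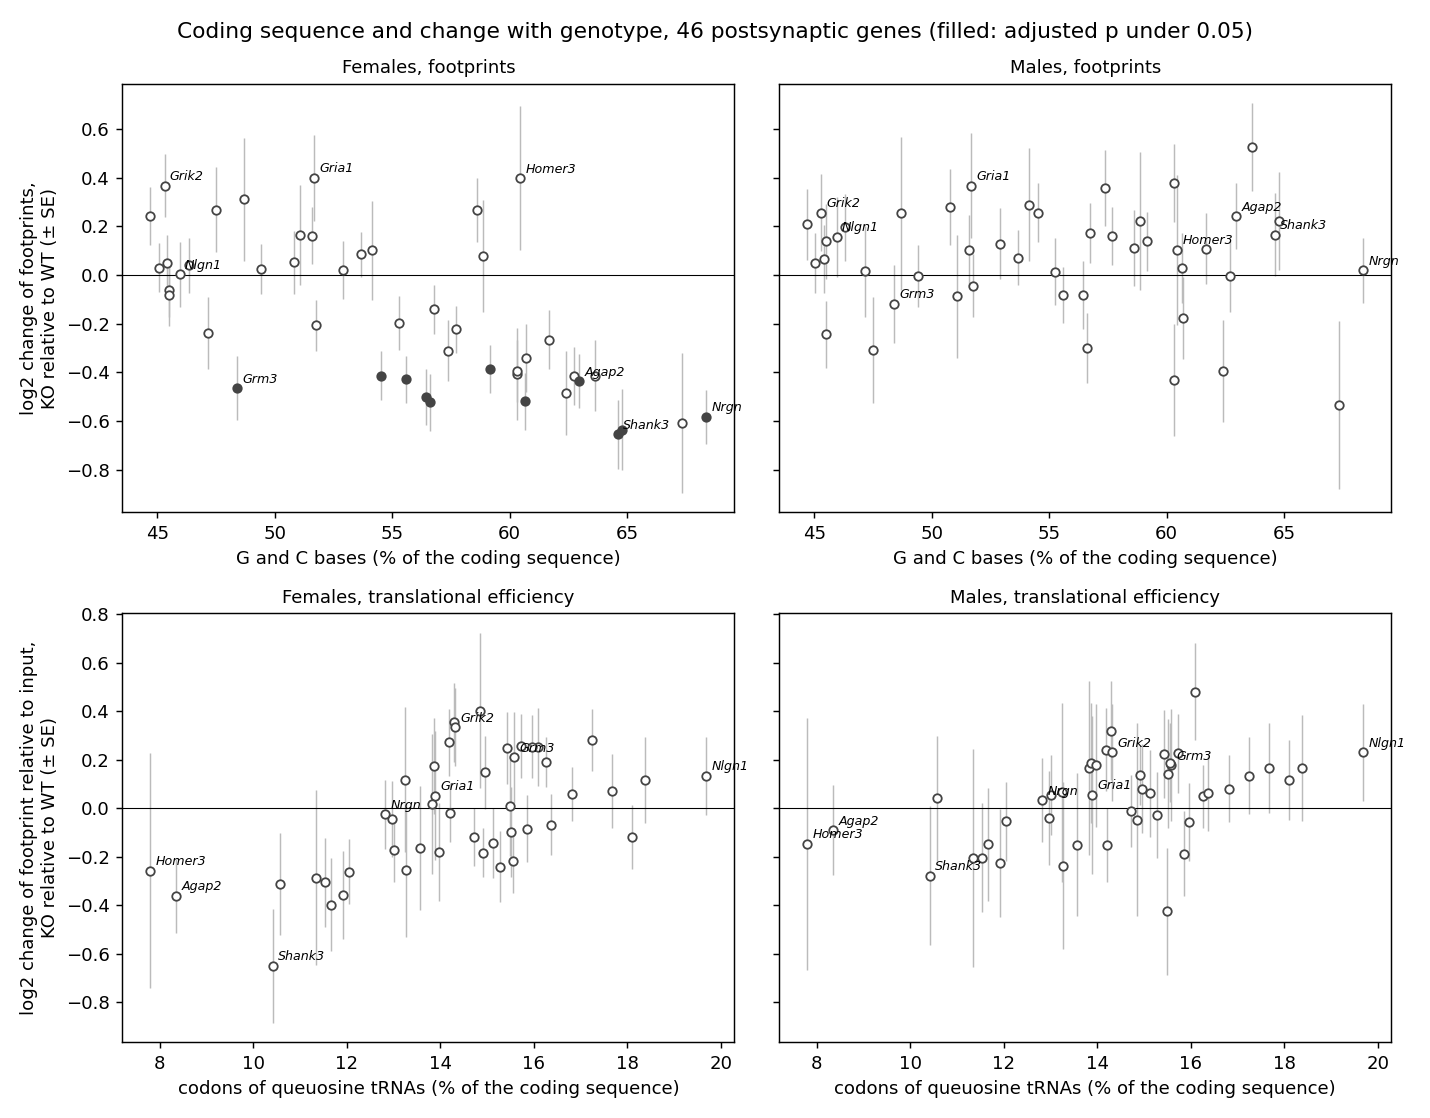
Log2 change of KO relative to WT with its standard error for 46 members in females (left) and males (right). The upper panels plot footprints against the percent of G and C bases in the coding sequence and the lower panels plot footprints relative to input RNA against the percent of codons read by queuosine tRNAs, and points are filled where the adjusted p is under 0.05. The filled points of the upper left panel lie below 0, most of them at a high share of G and C, and the lower panels rise from left to right in both sexes.

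The deposited codon tables show where on an mRNA the footprints lay. They gave footprints for 26 of the 47 members in at least 1 library, for 19 in every library, and for 5 at 100 or more footprints in every library. These 5 were Grik3, Grm3, Cacng2, Cacng3 and Nrgn. Grin1 had none there, and neither did Dlg4, Shank3 or the neuroligins.

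The sequences show the leading codons of these tables with the codons read by queuosine tRNAs around them. In Nrgn the leading codon directly follows a queuosine codon, and in Grm3 and Grik3 it follows a glycine codon, with the queuosine codon of the window farther downstream. They are printed 5′ to 3′ from GENCODE M21 (GRCm38), on the coding strand, with the codons of queuosine tRNAs in capitals. Nrgn lies on chromosome 9 and its whole coding sequence of 78 codons holds 10 such codons. Grm3 lies on chromosome 5, shown from codon 638 to codon 658, and Grik3 on chromosome 4, shown from codon 102 to codon 122, each around its most occupied codon in WT animals.
Nrgn: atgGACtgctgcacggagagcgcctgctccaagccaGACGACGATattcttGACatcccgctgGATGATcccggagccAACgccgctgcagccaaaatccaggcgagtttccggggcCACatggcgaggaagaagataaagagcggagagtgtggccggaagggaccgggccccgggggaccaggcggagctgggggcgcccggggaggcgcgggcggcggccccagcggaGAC
Grm3: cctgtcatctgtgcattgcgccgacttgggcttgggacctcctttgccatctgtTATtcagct
Grik3: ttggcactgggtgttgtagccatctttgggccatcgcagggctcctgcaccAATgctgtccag

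Of the listed footprints of Nrgn, codon 16 (ATT) carried 22.4, 22.3 and 26.9% in KO females, against 25.9, 28.6 and 32.6% in WT females. The male values were 24.0 and 28.9% in KO males, against 22.2 and 22.9% in WT males. The female groups overlapped, and both KO males lay above both WT males. Codon 16 is the first codon that the tables list, and the codon before it, codon 15, is GAT of the run of aspartate codons printed above. A lysine codon, AAG at codon 45, carried 20.8, 24.2 and 17.4% in KO females, against 24.9, 24.9 and 15.9% in WT females, and 22.8 and 11.8% in KO males, against 26.0 and 10.1% in WT males. Of the 78 codons, 30 were listed in any library. Footprints of Grm3 were spread over 496 codons, and codon 648 (CTT), chosen as the leading one in WT animals, carried 0.93, 1.72 and 2.13% in KO females, against 2.56, 4.42 and 2.54% in WT females, and 3.61 and 3.08% in KO males, against 1.91 and 6.16% in WT males. The female groups did not overlap and the male groups did. Each leading codon was picked by its share in WT animals, which favours WT above KO. Grik3 was spread over 474 codons, and its codon 112 (CCA) carried 6.52, 1.88 and 5.42% in KO females, against 3.49, 4.49 and 4.45% in WT females, and 9.62 and 6.95% in KO males, against 9.06 and 11.3% in WT males. In both genes the printed window holds 1 codon of a queuosine tRNA, and the leading codon is not one. In Cacng2 codon 147 (CTT) carried 18.7, 19.4 and 13.3% in KO females, against 8.59, 3.80 and 2.10% in WT females, and 6.67 and 11.1% in KO males, against 8.07 and 8.05% in WT males. That codon is singled out after its values were seen, and the 3 KO females lay above the 3 WT females while the males overlapped.

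Over all listed footprints of the members, the share on codons of queuosine tRNAs was 17.0, 16.1 and 16.1% in KO females, against 14.7, 15.0 and 15.1% in WT females, and 15.6 and 17.4% in KO males, against 13.9 and 15.7% in WT males. All KO females lay above all WT females, and KO male 1 lay just below WT male 2. The difference, averaged over the sexes, was 1.58 percentage points (1.46 in females and 1.70 in males, exact two-sided permutation p = 0.0333, adjusted over 4 tests 0.133), beside 1.48 percentage points over all mRNAs (exact permutation p = 0.0167, the smallest that 120 assignments allow). The 6 control codons also end in a pyrimidine but have no queuosine tRNA. They are those of phenylalanine, cysteine and the serine codons that start with AG. Their share differed by −0.074 percentage points in the members (exact permutation p = 0.733). Over all mRNAs the control share differed by 0.305 percentage points (0.618 in females and −0.0075 in males, exact permutation p = 0.217). The member value on queuosine codons rested on 2 mRNAs. Without Nrgn and Grm3, a choice made after the data were seen, it was −0.927 percentage points (exact permutation p = 0.40), and with every member mRNA given equal weight −0.154 (exact permutation p = 0.917). On the codon 1 upstream of the listed codon the queuosine share differed by 1.87 percentage points (0.149 in females and 3.59 in males, exact permutation p = 0.167) and the control share by −0.348 (exact permutation p = 0.583). The tables do not name the ribosomal site of either position.

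The 58 other postsynaptic genes of a wider list, of which 57 were tested, gave the following counts. In female footprints 8 fell and 0 rose, with a median of −0.16. Among them were Pick1 (−1.01) and Grip2 (−0.98), which bind the tails of AMPA receptors, Homer1 (−0.55), the adaptor of metabotropic receptors, Baiap2 (−0.46), Magi2 (−0.41), Arhgef7 (−0.36) and Lrfn4 (−0.60), as log2 differences. In female input RNA 5 fell and 0 rose: Homer1 (−0.51), Magi2 (−0.27), Tanc2 (−0.39), Cyfip2 (−0.31) and Slitrk1 (−0.34). In males 0 of 57 passed in either, by edgeR or DESeq2, with 3 in footprints and 11 in input RNA at an unadjusted p under 0.05. The 15 pan-neuronal markers had 3 lower and 0 higher in female footprints, with 14 below 0 and a median of −0.14.

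Since tissue markers differed between the female groups, the members were also compared without the animals that stood apart in them. The mean log2 footprint level of the 47 genes was 6.81, 6.74 and 6.78 in KO females, against 6.92, 7.04 and 6.80 in WT females, and lay between 6.66 and 6.79 in males. WT female 3 lay within the KO range on this measure. Summed over the 47 genes, footprints had 10139 to 10169 CPM in KO females and 10347 to 11942 CPM in WT females, without overlap. WT female 2, which had the highest member level, was second lowest in choroid plexus markers, and its striatum marker level lay below that of KO female 2. Pan-neuronal markers averaged a log2 level of 9.23 to 9.37 in KO females, against 9.44 to 9.57 in WT females, without overlap. Within the KO females and within the WT females, the order of the animals in member level was neither that of striatum nor that of choroid plexus markers. An order of 3 animals cannot decide the part of either tissue. Without the low choroid plexus animals, WT females 1 and 2, 0 members were called in female footprints, 0.891% of all genes were called, and the members' median was −0.07. Female input RNA then had 12 calls, 8 lower and 4 higher, of which 5 were among the 10 (3.46% of all genes, median −0.08). Without the animals highest in striatum markers 0 members were called in either, with 0.00747% of all genes in footprints and 0.049% in input RNA, while the medians were −0.21 and −0.18. With both marker levels as covariates 0 were called in either, with 0.00761% and 0% of all genes and medians of −0.21 and −0.16. In the striatum and covariate fits calls were fewer over the whole table too. The part of carried-over tissue RNA in the members' differences was not tested. The fits that leave out animals by marker level keep 1 WT female, whose spread is assumed to be that of the other groups. Calls also depended on single animals. In female footprints 0 members were called without KO female 1 (0.282% of all genes, median −0.17), KO female 2 (1.66%, −0.17) or WT female 1 (0.618%, −0.19). There were 6 without KO female 3, all lower (4.23% of all genes), and 6 without WT female 2, 4 lower and 2 higher (5.65%). In female input RNA the count was 0 without KO female 1 (0.0283% of all genes), 1 without WT female 1 (0.326%), 2 without KO female 2 (1.15%), 4 without WT female 3 (1.6%), 5 without KO female 3 (1.51%) and 6 without KO male 1 or KO male 2 (1.73% and 1.74%), all lower. Without WT female 2 it was 16, 11 lower and 5 higher (7.29% of all genes). For both sexes averaged, leaving out WT male 1 gave 10 called members in footprints and 10 in input RNA, 8 lower and 2 higher in each (10.8% and 3.97% of all genes). Leaving out WT female 2 gave 12 in input RNA, 7 lower and 5 higher (4.95% of all genes).

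**Figure D5:**
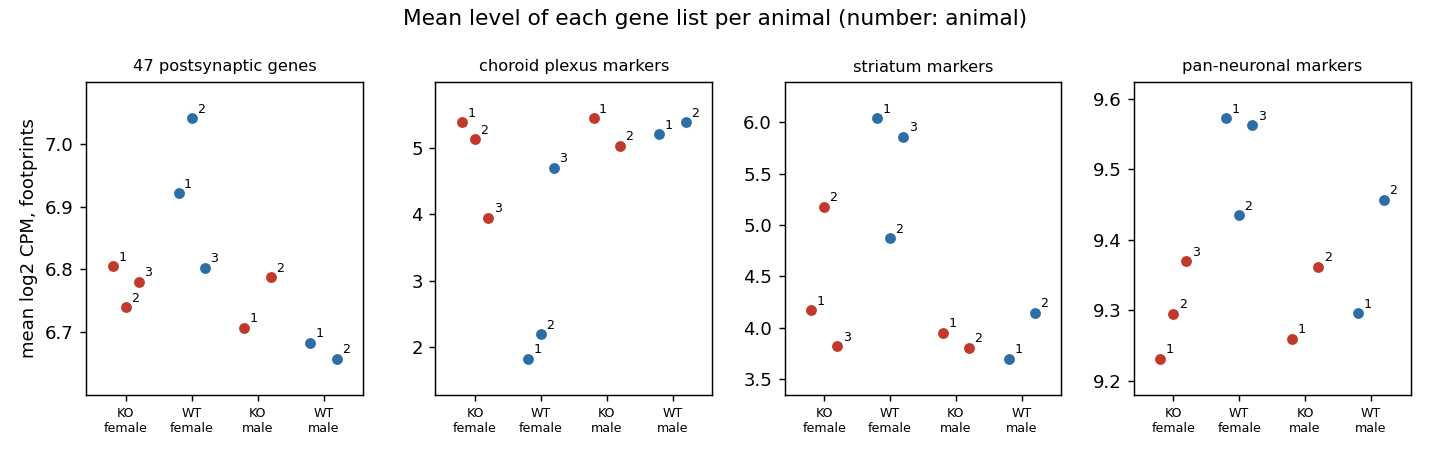
Mean log2 CPM in footprint libraries (vertical) of the 47 genes and of the choroid plexus, striatum and pan-neuronal marker lists, with 1 point per animal numbered by replicate, KO in red left of WT in blue. WT females 1 and 2 are lowest in choroid plexus markers, WT females 1 and 3 are highest in striatum markers, and the 3 KO females lie below the 3 WT females in pan-neuronal markers.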

How the data were processed

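Ribosome footprints and input RNA came from the same hippocampal lysate of each of 10 animals (20 libraries), and groups follow the genotype and sex of the labels. The authors deposited raw whole-number counts per gene symbol, without normalization, and for each footprint library a table of footprint counts per codon of an mRNA, per the file headers. Those tables list codons with at least 1 footprint, start at codon 16 and name mRNAs by Ensembl transcript. Per the submitters' processing notes, the tools were Bowtie (1.0.0 and 1.2.2), SAMtools 0.1.19, Trimmomatic 0.39 and cutadapt 1.8.1, with no role stated. Neither the counting program, its strand setting, any molecular identifiers nor the genome build is given in the sources used here. The deposited codon enrichment tables were not used.

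Counts were tested with edgeR 4.0.16 (R 4.3.3) by quasi-likelihood F tests with TMM scaling and the filterByExpr filter, in 1 fit per assay over all 10 libraries with a mean for each group of sex and genotype. Both sexes means the average of the female and male differences. Footprints relative to input RNA were fitted as an assay-by-genotype term over all 20 libraries. The threshold for a call was 0.05 for the p adjusted by Benjamini-Hochberg over all genes tested, and the script recovered changed genes in simulated counts. Differences are log2, KO minus WT, ± the standard error of the fit, and CPM carries no pseudocount, while mean log2 CPM of a marker list uses a prior count of 2. Densities use the longest coding sequence of each gene in GENCODE M21 (GRCm38), which Cacng8 lacks. Codon shares were compared by an exact two-sided permutation of genotype within sex (120 assignments). Chi-square per degree of freedom between replicates was 3.45 to 14.3, so animals differed by more than counting error. Same-numbered animals of the genotypes did not deviate together (r from −0.21 to 0.0944).

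Alternatives were DESeq2 1.42.0, DESeq2 size factors, no filter, a replicate block, fits within 1 sex, single animals left out, and animals or covariates chosen by choroid plexus and striatum markers. The correction for G and C content and the codon shares without Nrgn and Grm3 were added after the data were seen. Members named by rule were those called in any comparison, those most abundant in their role and those at the extremes of the ratio. Values per animal are given for many of these but not for all, and Grik2 was added after its values were seen. The members, the gene lists and the tests were chosen with earlier results of these data known.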

Additional observations from a re-analysis of the deposited data

How the results depend on the processing

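For female footprints, where 11 members were called, the count was 0 without the low choroid plexus animals (0.891% of all genes, members' median −0.07), 0 without the high striatum animals (0.00747%, −0.21), 0 with both marker levels as covariates (0.00761%, −0.21) and 5 with the G and C correction (5.34%, −0.14), and from 0 to 13 with single animals left out. For female input RNA (10 called) it was 0 without the high striatum animals and 0 with the covariates, and from 0 to 16 with single animals left out. For both sexes in input RNA (1 called) it was 2 with DESeq2 size factors, 9 with DESeq2 (2.95% of all genes), 5 without the filter (1.53%), 8 without the low choroid plexus animals (2.79%), 0 without the high striatum animals, 0 with the covariates and 0 with the G and C correction, and from 0 to 12 with single animals left out. For both sexes in footprints (0 called) it was 2 with DESeq2, 1 without the filter and from 0 to 10 with single animals left out. The sex difference gave 1 footprint call and 2 input RNA calls with DESeq2, the input count ran from 0 to 2 with single animals left out, and male input RNA gave 0 to 1. Footprints relative to input RNA gave 0 in every comparison and setting run. Fits that leave 1 WT female assume that it varies like the other groups. A count given here without a share of all genes may move with the whole table. The causes of these shifts were not tested.

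With the replicate number as a block, which pairs animals by a number (same-numbered males had equal ages, and the labels give no other link), 2 members were called in female footprints (2.34% of all genes), 7 in female input RNA and 0 in input RNA of both sexes. For the input RNA counts the share of all genes is not given here, so they cannot be read as particular to the members.

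The queuosine codon share at the listed codon ran from 1.122 to 2.0435 percentage points with single animals left out, and was −0.1539 with equal weight for each mRNA and −0.9269 without Nrgn and Grm3. Over the 5 mRNAs with 100 or more footprints in every library it was 1.90 (exact permutation p = 0.0167). Counted were the female values of the members named by rule and the Grm3 value over both sexes, under settings other than leaving out 1 animal. Of these, 563 stayed on their side of the threshold, 81 lost and 12 gained a call. Most of the 563 had no call to lose. Of the 22 calls, all 22 were lost with the covariates, 13 with the replicate block and 7 with the G and C correction. All 22 held with DESeq2. None changed sign where either fit made a call. Sign changes without a call in either fit would be among the 563. With single animals left out, 614 values stayed, 105 lost and 11 gained a call. Values of other members are not in this count.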
